A study of Mus musculus with 10 samples.

Results

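The genes described here are 9 markers of angiogenic tip cells and tumour endothelium, Esm1, Apln, Aplnr, Cxcr4, Kcne3, Pdgfb, Mcam, Trp53i11 and Lxn. They were taken by their symbols from 23238 symbols shared by all 10 count files. The rule uses no measured value, but earlier results of these data were known when the 9 genes were chosen. Each had 1 row per file, and all 9 were among the 13040 genes that passed the low-count filter. The cells were endothelial cells purified from gliomas that grew after GL26l cells had been injected into the brains of mice on a C57BL/6 background. In the Sox7 arm, 2 libraries came from Sox7 ECKO (endothelial knockout) mice, which carried Sox7 fl/fl alleles and the Cdh5(BAC)-CreERT2 driver, and 2 from Sox7 control mice. In the Sox17 arm, 3 libraries came from Sox17 ECKO mice, with Sox17 fl/fl alleles and the same driver, and 3 from Sox17 control mice. Cdh5 is active in endothelium generally, so the deletion was not limited to tumour vessels or to any endothelial subtype. Per the design text, the experimental mice received tamoxifen at 20 mg/kg. The sources used here do not give the genotype or treatment of the controls, the age and sex of the mice, or any pooling. Effects of the deletion, of tamoxifen and of the recombinase therefore cannot be told apart.

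New vessels are led by tip cells, which extend filopodia towards vascular endothelial growth factor, while stalk cells behind them form the tube and phalanx cells line the quiescent vessel. Tip cells carry a distinct set of transcripts, and many of them are also high in the endothelium of tumours, gliomas included. Sox7 and Sox17, with Sox18, form the SoxF group of transcription factors, which act in vascular development.

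The 9 genes fall into 3 roles. Esm1 (endocan, a secreted proteoglycan), Apln (the peptide ligand apelin) and Pdgfb (the growth factor with which endothelium recruits pericytes) encode secreted products. Aplnr (the apelin receptor) and Cxcr4 (the receptor of the chemokine Cxcl12) are G-protein-coupled receptors. Of the others, Kcne3 is an accessory subunit of potassium channels, Mcam is the cell adhesion molecule CD146, Trp53i11 is a gene induced by p53, and Lxn encodes latexin, an inhibitor of carboxypeptidases. On GRCm38, with GENCODE vM21 as annotation, all 9 are protein-coding. Esm1 lies at chr13:113209659-113218098 (plus strand), Apln at chrX:48025146-48034853 (minus strand) and Pdgfb at chr15:79995874-80014977 (minus strand). Aplnr lies at chr2:85136225-85139923 (plus strand) and Cxcr4 at chr1:128588199-128592293 (minus strand). Kcne3 lies at chr7:100176502-100184869, Mcam at chr9:44134469-44142727 and Trp53i11 at chr2:93187548-93201759, all on the plus strand. Lxn, at chr3:67457998-67463926 on the minus strand, shares 63 exonic bases with Gfm1 on the plus strand. Kcne3 shares 9 exonic bases with the antisense gene Gm34821 and Mcam 17 with the antisense gene Gm10687. Whether the counting used strand is not given in the sources used here. Reads within these shared bases therefore cannot be told apart from those of the opposite-strand neighbours.

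RefSeq promoters (GRCm38.p6) were matched by symbol for 7 of the 9 genes, all but Aplnr and Pdgfb. Sox7 and Sox17 are DNA-binding proteins, and the 250 bases before the transcription start are printed for 3 genes whose values recur below. Esm1 is a widely used marker of tip cells, Apln the one with the closest values within a group of 3 libraries, and Kcne3 the one with the largest fitted difference between arms. Kcne3 has 2 starts in the table, and the second is shown. The Esm1 stretch is chr13:113209409-113209658 (plus strand), that of Apln chrX:48034854-48035103 (minus strand) and that of Kcne3 chr7:100178433-100178682 (plus strand). Capitals mark a match to ACAAAG or its reverse complement CTTTGT, bound by SOX and TCF factors, in Apln and a match to TGGGAA, the core bound by the Notch effector RBPJ, in Kcne3.
Esm1: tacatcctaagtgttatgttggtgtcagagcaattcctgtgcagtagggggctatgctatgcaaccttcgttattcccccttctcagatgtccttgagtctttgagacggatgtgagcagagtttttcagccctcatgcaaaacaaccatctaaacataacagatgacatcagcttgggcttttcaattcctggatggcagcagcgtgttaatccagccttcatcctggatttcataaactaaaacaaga
Apln: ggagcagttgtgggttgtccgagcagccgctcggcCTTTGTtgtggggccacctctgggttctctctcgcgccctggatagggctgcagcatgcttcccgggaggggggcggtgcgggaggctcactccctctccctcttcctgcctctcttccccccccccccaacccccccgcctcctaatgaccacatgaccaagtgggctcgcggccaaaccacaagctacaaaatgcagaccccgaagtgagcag
Kcne3: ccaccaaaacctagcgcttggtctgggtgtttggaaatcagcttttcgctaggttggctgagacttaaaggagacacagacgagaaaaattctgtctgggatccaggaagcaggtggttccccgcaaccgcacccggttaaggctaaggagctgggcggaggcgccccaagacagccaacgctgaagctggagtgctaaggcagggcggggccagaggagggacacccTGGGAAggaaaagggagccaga
These motifs were searched on both strands together with the SOX core ACAAT and the hypoxia element ACGTG. Among the 8 windows of the 7 genes, ACAAT occurred in 1 (the first start of Kcne3), ACAAAG in 1, TGGGAA in 1 and ACGTG in 2 (the first start of Kcne3, and Lxn). Over 32851 promoters of the same length, 27.7% held ACAAT, 16.5% ACAAAG, 21.6% TGGGAA and 16.6% ACGTG. The Esm1 window held none of the 4. Exons annotated in GENCODE covered 250 bases of the Mcam window, 114 of the first Kcne3 window and 19 of the Lxn window. These windows are thus not wholly upstream of annotated exons. The 3 printed windows held 0 such bases.

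Total counts were 9207072 and 6781972 in Sox7 ECKO libraries, 9515034 and 9699934 in Sox7 control libraries, between 6675524 and 35068802 in Sox17 ECKO libraries and between 2082305 and 16803284 in Sox17 control libraries. Values are given as CPM (counts-per-million of the library size scaled by trimmed mean of M-values), in which a floor of 3 counts lay between 0.0847 CPM (Sox17 ECKO 2) and 1.36 CPM (Sox17 control 1). The targeted genes were low in their own ECKO libraries. Sox7 had 0.577 and 0.664 CPM in Sox7 ECKO libraries, against 23.1 and 5.90 CPM in Sox7 control libraries, and Sox17 averaged 3.23 ± 3.03 CPM in Sox17 ECKO and 119 ± 47.7 CPM in Sox17 control libraries (SD, n = 3 each). All 18 pan-endothelial markers (Pecam1, Cdh5 and others) had counts in every library. Sox7 ECKO 1 stood apart. The summed level of 17 macrophage and microglia markers was 22138 CPM there and 227 CPM in Sox7 ECKO 2, against 1305 and 486 CPM in the Sox7 controls. Between 30.9 and 845 CPM were found in the Sox17 arm. None of the 17 was at 0 in Sox7 ECKO 1, and Csf1r, the receptor that defines the macrophage lineage, had 587 CPM there and at most 28.7 CPM elsewhere. The geometric mean of the pan-endothelial markers (CPM + 1) was 252 in Sox7 ECKO 1 and between 414 and 485 in the other libraries. Each ECKO library has a control of the same number, called a set here, and the labels of 4 of the 5 sets carry a run code that both libraries share. Values within a set are therefore also values within a run for those 4 sets. Sox17 set 1 carries no such code, so its 2 libraries are not known to share a run.

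None of the 9 tip cell and tumour endothelium markers passed the test in either arm, and neither did the deleted genes. Sox7 was at log2 −4.52 in the Sox7 comparison (SE 1.04, edgeR unadjusted p = 0.000394). Sox17 was at log2 −5.24 in the Sox17 comparison (SE 0.81, edgeR adjusted p = 0.226). Each ranked 1 by p in its own comparison. A gene that did not pass is thus not shown to be unchanged. In edgeR's quasi-likelihood test with Benjamini-Hochberg adjustment over 13040 genes, 0 of 9 passed an adjusted p of 0.05 in the Sox7 comparison, where 0% of all genes passed. The Sox17 comparison and the difference between the arms gave the same 0 of 9, again with 0% of all genes. At an unadjusted p under 0.05 the count was also 0 of 9 in each, against 1.5% of all genes in the Sox7 comparison, 3.52% in the Sox17 comparison and 2.87% in the difference. DESeq2 and limma-voom called 0 of 9 as well, by adjusted p. At an unadjusted p under 0.05 each had 1 of 9 in the Sox17 comparison, against 567 and 684 of 13040 genes. That gene was Pdgfb in DESeq2 (log2 −0.88, unadjusted p = 0.0435) and Kcne3 in limma-voom (log2 1.64, unadjusted p = 0.00595). In edgeR with no low-count filter, Cxcr4 was under 0.05 in the Sox7 comparison (log2 1.31, unadjusted p = 0.0363), as were 376 of 17148 genes. Kcne3 was so in the difference (log2 −2.29, unadjusted p = 0.0290), as were 689 of 17148, and 0 of 9 were in the Sox17 comparison. The common biological coefficient of variation between libraries was 0.989. With the set as a block, 1 gene of all those tested passed in the Sox7 comparison, 6 in the Sox17 comparison and 3 in the difference, and none of these was among the 9. At an unadjusted threshold of 0.05 the block gave 1 of 9 in the Sox7 comparison, against 2.32% of all genes, 1 of 9 in the Sox17 comparison, against 3.92%, and 3 of 9 in the difference, against 2.81%. These were Kcne3 in the Sox7 comparison (unadjusted p = 0.0404) and Cxcr4 in the Sox17 comparison (unadjusted p = 0.0459). In the difference they were Kcne3 (log2 −2.94, unadjusted p = 0.00956), Aplnr (log2 −1.68, SE 0.64, unadjusted p = 0.0155) and Trp53i11 (log2 −1.18, SE 0.57, unadjusted p = 0.0495). The edgeR adjusted p was 1 for each of these 5 values. The labels do not say that libraries came from separate animals, so p-values measure the spread between these libraries. In bulk RNA a lower level may mean fewer cells of a type or less RNA per cell, and these cannot be told apart.

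The fitted directions of the 9 genes were counted in each comparison. The share of all genes whose direction differed between the arms was not counted. In the Sox7 comparison 3 of the 9 were higher and 6 lower in ECKO libraries, with a median log2 fold change of −0.29. All genes had a median of 0.037, and 47.5% of them were lower. Apln, at −0.02, was the one whose sign turned with other size factors (0.0036). In the Sox17 comparison 7 were higher and 2 lower in ECKO libraries, with a median of 0.42. There the median of all genes was 0.047, and 52.8% of them were higher and 47.1% lower. In the difference, Sox7 effect minus Sox17 effect, 3 of 9 were positive and 6 negative, with a median of −0.55 against 0.019 for all genes. Every 95% interval of the 9 genes included 0 in all 3 comparisons. Without Sox7 ECKO 1, the library high in macrophage markers, the Sox7 log2 fold changes were 1.02 for Esm1, 0.30 for Apln, −1.05 for Aplnr, −1.33 for Cxcr4 and −3.26 for Kcne3. Those of Pdgfb, Mcam, Trp53i11 and Lxn were −0.09, −0.98, −0.99 and 0.05. Kcne3 then had the lowest adjusted p of the 9 in that comparison (0.334 in edgeR, SE 1.04).

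**Figure D1:**
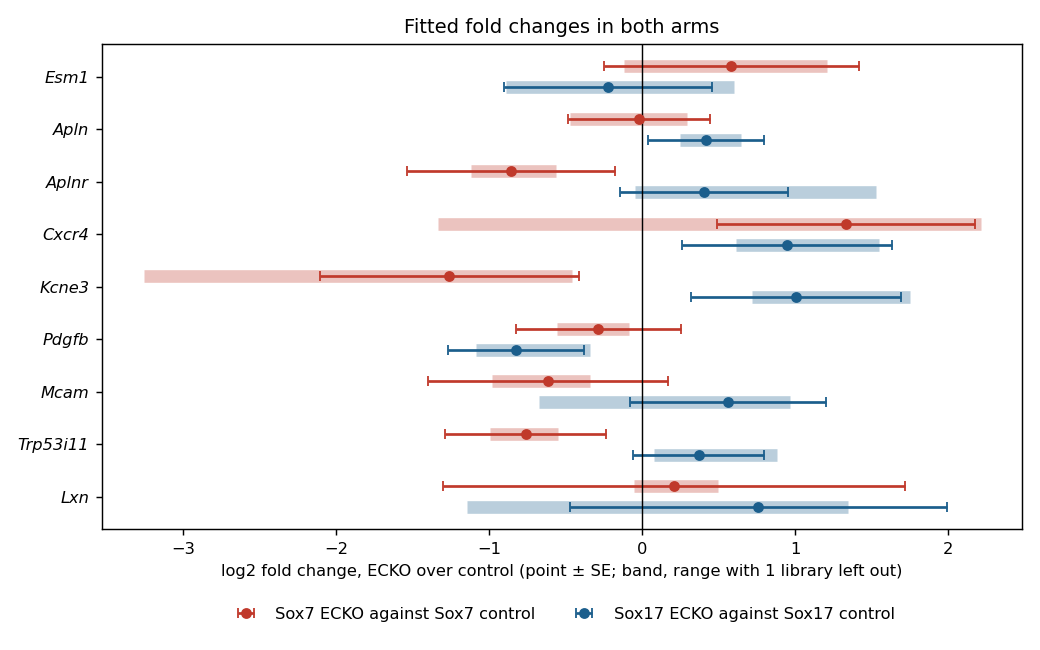
Log2 fold changes of the 9 genes (x axis, ECKO over control) in the Sox7 comparison (red) and the Sox17 comparison (blue). Points and bars are the edgeR estimate ± SE from all 10 libraries, pale bands the range of estimates when 1 library at a time was left out. Kcne3 lay at −1.26 in the Sox7 comparison and at 1.01 in the Sox17 comparison, and the bands of Cxcr4, Esm1, Apln and Lxn in the Sox7 comparison crossed 0.

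In the Sox7 arm, 5 of the 9 genes (Aplnr, Kcne3, Pdgfb, Mcam and Trp53i11) had lower CPM in both ECKO libraries than in either control library. Of all genes tested, 12.8% had non-overlapping groups in that direction, and 22.5% were lower in both sets. The pan-endothelial markers showed this in 10 of 18. Their mean log2(CPM + 1) was 0.89 lower in the ECKO library than in the control library of Sox7 set 1 (a difference of −0.89) and differed by −0.11 in set 2. Taken relative to that mean, an alternative chosen after the data had been seen, 1 of the 9 genes, Aplnr, was lower in both Sox7 sets. In set 1 the count of genes lower and higher in ECKO was then 1 and 8, against 7 and 2 without it. No gene of the 9 had non-overlapping groups in the other direction, where 12.7% of all genes did, and 1 (Lxn) was higher in both sets, as were 22.3% of all genes. In the Sox17 arm 0 of 9 had non-overlapping groups, against 8.35% of all genes in either direction (4.13% with ECKO higher). There Apln, Cxcr4 and Kcne3 were higher in ECKO in all 3 sets, as were 13.1% of all genes, and Pdgfb was lower in all 3 sets, as were 11.5% of all genes. The same 3 were higher in all 3 sets relative to the pan-endothelial mean, whose differences in the Sox17 sets lay between −0.05 and 0.06.

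**Figure D2:**
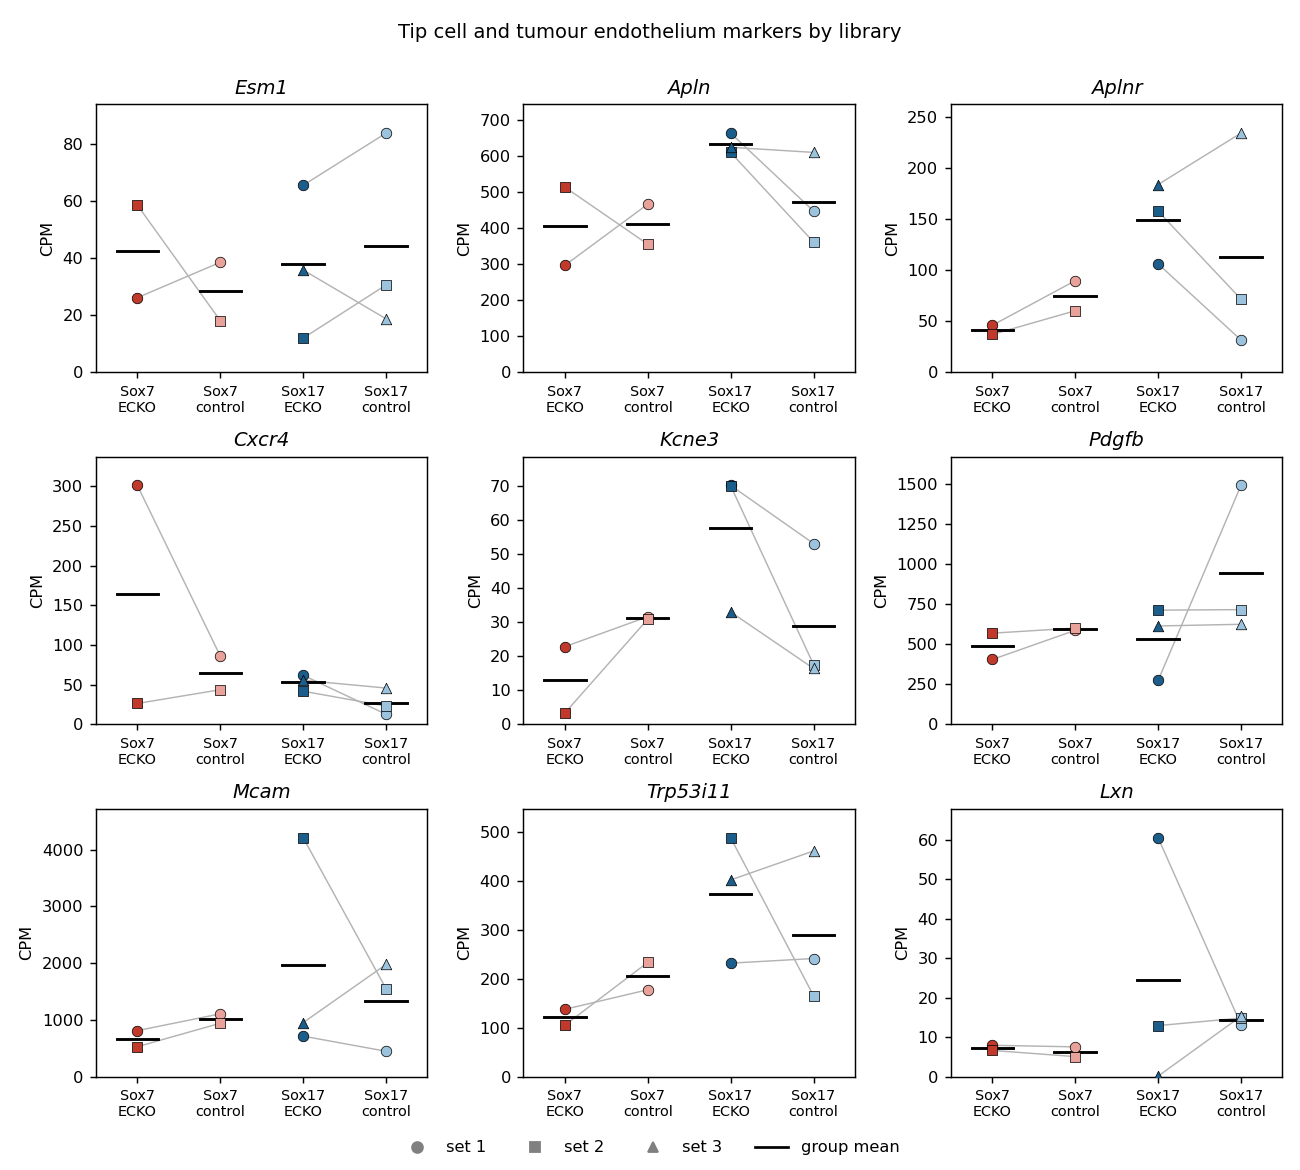
CPM of each of the 9 genes (y axis, linear, a scale per gene) in the 10 libraries by group (x axis). Symbols give the set, grey lines join the libraries of a set and black bars are group means. Aplnr, Kcne3, Pdgfb, Mcam and Trp53i11 do not overlap between Sox7 ECKO and Sox7 control libraries, and no gene is free of overlap between Sox17 ECKO and Sox17 control libraries.

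Apln showed close values in the Sox17 ECKO libraries. It had 663, 609.9 and 624 CPM in Sox17 ECKO 1, 2 and 3, against 447, 361 and 609.9 CPM in Sox17 control 1, 2 and 3. The means were 632 ± 27.8 CPM in Sox17 ECKO and 473 ± 126 CPM in Sox17 control libraries (SD, n = 3 each). Sets 1 and 2 were apart, while Sox17 control 3 lay level with Sox17 ECKO 2 and close to Sox17 ECKO 3, so that the groups touched. Its log2 fold change was 0.42 (SE 0.38, 95% interval −0.37 to 1.21, edgeR adjusted p = 1), and with 1 library left out it lay between 0.25 and 0.65. In the Sox7 arm Apln had 296 and 513 CPM in Sox7 ECKO libraries, against 466 and 355 CPM in Sox7 control libraries. The sets went opposite ways there, with ECKO lower in set 1 and higher in set 2, and the log2 fold change was −0.02 (SE 0.46). ECKO was higher in both Sox7 sets relative to the pan-endothelial mean, by 0.24 and 0.64 on the log2(CPM + 1) scale. Apela, the second ligand of the apelin receptor, was not tested: it had 13 counts in Sox7 ECKO 1, 10 in Sox17 control 3 and 0 in the other libraries.

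Aplnr, the receptor, had 45.8 and 36.8 CPM in Sox7 ECKO libraries, against 89.4 and 60.0 CPM in Sox7 control libraries. Both ECKO libraries lay below both controls. The log2 fold change was −0.86 (SE 0.68, 95% interval −2.29 to 0.57, edgeR adjusted p = 1), and it lay between −1.12 and −0.56 with 1 library left out. Relative to the pan-endothelial mean, the difference was −0.06 in set 1 and −0.58 in set 2 on the log2(CPM + 1) scale. Aplnr had 106, 157 and 184 CPM in Sox17 ECKO libraries, against 31.3, 71.4 and 234 CPM in Sox17 control libraries. Sox17 ECKO was the higher library in sets 1 and 2 and the lower one in set 3, and control 3 was the highest of all 10 libraries. The log2 fold change of 0.40 (SE 0.55) was 1.53 without Sox17 control 3 and −0.05 without Sox17 control 1.

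Pdgfb was lower in the ECKO library of all 5 sets, by very different amounts. It had 405 and 569 CPM in Sox7 ECKO libraries, against 587 and 601 CPM in Sox7 control libraries. In the Sox17 arm it had 274, 713 and 614 CPM in Sox17 ECKO libraries, against 1491, 716 and 624 CPM in Sox17 control libraries. Set 1 carried almost the whole difference, with the lowest of the 10 values in its ECKO library and the highest in its control library, and sets 2 and 3 were nearly level. Sox17 set 1 is also the set whose labels carry no run code. The differences in log2(CPM + 1) were −2.44, −0.01 and −0.02 in Sox17 sets 1, 2 and 3, and −0.53 and −0.08 in Sox7 sets 1 and 2. Relative to the pan-endothelial mean, the differences of Sox7 set 1, Sox7 set 2 and Sox17 set 3 were 0.36, 0.035 and 0.022, so the direction held in Sox17 sets 1 and 2 only. The Sox17 log2 fold change was −0.82 (SE 0.44, 95% interval −1.75 to 0.11, unadjusted p = 0.0796, adjusted p = 1 in edgeR), and it was −0.34 without Sox17 control 1. That library was the shallowest, and the summed level of 7 erythroid markers was 2910 CPM in it and at most 429.9 CPM in the other libraries. The part of these features in the Pdgfb value was not tested. The Sox7 log2 fold change was −0.29 (SE 0.54).

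Pdgfrb, the pericyte receptor that Pdgfb acts on, had 8.25, 64.6 and 75.9 CPM in Sox17 ECKO libraries, against 58.5, 171 and 64.3 CPM in Sox17 control libraries (log2 fold change −0.98, SE 0.66, edgeR adjusted p = 1). Its groups overlapped. Pdgfrb is itself a marker of pericytes. The summed level of 13 pericyte and mural cell markers was between 338 and 396 CPM in Sox17 ECKO libraries, against 363 to 1369 CPM in Sox17 control libraries. All 13 had a lower fitted level in Sox17 ECKO, 0 of them called, and only Anpep was at 0 in any Sox17 library. The fall was not uniform over the sets. In Sox17 set 3 the sum was higher in ECKO (396 CPM) than in control (363 CPM). Of the 13, 3 were lower in ECKO in all 3 Sox17 sets, against 11.5% of all genes. The part of mural cell RNA in the Pdgfrb value was not tested.

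Cxcr4 varied most among the Sox7 ECKO libraries. It had 301 and 26.3 CPM in Sox7 ECKO 1 and 2, against 86.1 and 43.6 CPM in Sox7 control 1 and 2. One ECKO library was the highest and the other the lowest of the 4, so the log2 fold change of 1.34 (SE 0.84) described neither. It was −1.33 without Sox7 ECKO 1 and 2.21 without Sox7 ECKO 2. Cxcr4 is also expressed by leukocytes. The library with 301 CPM was the one with 22138 CPM of macrophage and microglia markers and with the highest summed level of lymphocyte markers, 189 CPM, against at most 14.7 CPM in every other library. Of this sum, 141 CPM were Ptprc, which is also in the macrophage list, while Cd3e, which defines T cells, had 2.60 CPM. The part of leukocyte RNA in the Cxcr4 value of that library was not tested. Cxcr4 had 61.8, 41.7 and 55.5 CPM in Sox17 ECKO libraries, against 12.7, 23.0 and 45.7 CPM in Sox17 control libraries. Sox17 ECKO was higher in all 3 sets, although the groups overlapped because Sox17 control 3 exceeded Sox17 ECKO 2. Across the arm the log2 fold change was 0.95 (SE 0.69, edgeR adjusted p = 1) and lay between 0.61 and 1.55 with 1 library left out. Macrophage and microglia markers summed to 54.6, 409 and 220.0 CPM in Sox17 ECKO 1, 2 and 3, against 30.9, 845 and 233 CPM in Sox17 control 1, 2 and 3. Of the 17, 11 were at 0 in Sox17 ECKO 1 and 12 in Sox17 control 1. The part of leukocyte RNA in the Sox17 arm's Cxcr4 values was not tested.

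**Figure D3:**
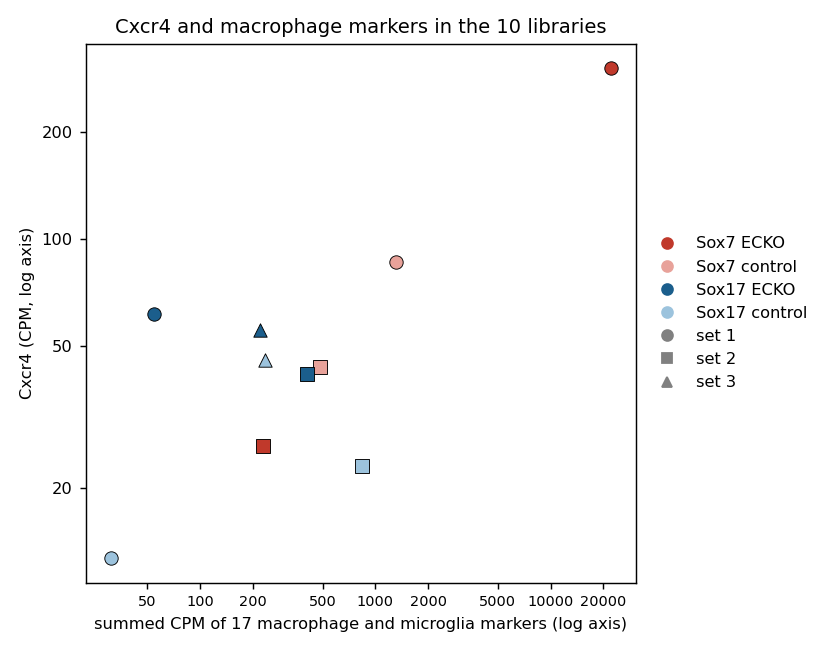
Cxcr4 (y axis, CPM, log scale) against the summed CPM of 17 macrophage and microglia markers (x axis, log scale) in the 10 libraries, coloured by group and shaped by set. Sox7 ECKO 1, with 301 CPM of Cxcr4 and 22138 CPM of markers, lies far from the other 9 libraries, whose Cxcr4 was at most 86.1 CPM.

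Cxcl12, the ligand of Cxcr4, had the smallest p of the partner genes in the Sox17 comparison. It had 541, 741 and 457 CPM in Sox17 ECKO libraries, against 1510.2, 4122 and 847 CPM in Sox17 control libraries. All 3 ECKO libraries lay below all 3 controls, the one partner of 5 tested in which they did, and 4.23% of all genes did so. Its log2 fold change was −1.90 (SE 0.57, 95% interval −3.09 to −0.70, unadjusted p = 0.00381). It ranked 15 of 13040 by p and did not pass the adjustment (edgeR adjusted p = 1). With DESeq2 the adjusted p was 0.0921, and with no filter on low counts edgeR gave 0.0751. Without Sox17 control 2, the library with 4122 CPM, the log2 fold change was −1.03. Cxcl12 is also made by pericytes and fibroblasts. Besides the mural markers given above, 8 fibroblast markers summed to between 18.4 and 83.1 CPM in Sox17 ECKO libraries, against 26.5 to 54.0 CPM in Sox17 control libraries, and their part in the Cxcl12 value was not tested. In the Sox7 arm Cxcl12 had 1012 and 1782 CPM in Sox7 ECKO libraries, against 2293 and 699 CPM in Sox7 control libraries, and its log2 fold change was −0.10 (SE 0.67). The difference between the arms was 1.80 (SE 0.87, edgeR adjusted p = 1.00). Ackr3, the scavenging receptor of Cxcl12, had a log2 fold change of −0.73 (SE 0.68) in the Sox17 comparison and 0.17 (SE 0.83) in the Sox7 comparison. Kdr, the main receptor of vascular endothelial growth factor on endothelium, had values of −0.17 (SE 0.39) and −0.30 (SE 0.48) in the Sox17 and Sox7 comparisons, and those of its ligand Vegfa were 0.88 (SE 1.10) and 0.73 (SE 1.34). Pdgfra was not tested.

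Kcne3 had the largest fitted difference between the arms among the 9 genes. It had 22.8 and 3.32 CPM in Sox7 ECKO libraries, against 31.6 and 30.9 CPM in Sox7 control libraries. The controls were almost equal and both ECKO libraries lay below them, Sox7 ECKO 2 far below. Kcne3 had 70.2, 70.1 and 33.0 CPM in Sox17 ECKO libraries, against 53.1, 17.5 and 16.4 CPM in Sox17 control libraries. Sox17 ECKO was higher in every set, and the groups overlapped because Sox17 control 1 exceeded Sox17 ECKO 3. The log2 fold change was −1.26 (SE 0.84, 95% interval −3.03 to 0.51) in the Sox7 comparison and 1.01 (SE 0.69, 95% interval −0.43 to 2.45) in the Sox17 comparison. The test of their difference gave −2.27 (SE 1.09, 95% interval −4.55 to 0.02, unadjusted p = 0.0516, edgeR adjusted p = 1.00). With 1 library left out, the Sox7 value lay between −3.26 (without Sox7 ECKO 1) and −0.45 (without Sox7 ECKO 2). The Sox17 value lay between 0.72 (without Sox17 control 3) and 1.75 (without Sox17 control 1). Relative to the pan-endothelial mean, the Sox7 set 1 difference of −0.45 on the log2(CPM + 1) scale was 0.44, and that of set 2, −2.88, was −2.77. The direction in Sox7 set 1 thus depended on that scaling.

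**Figure D4:**
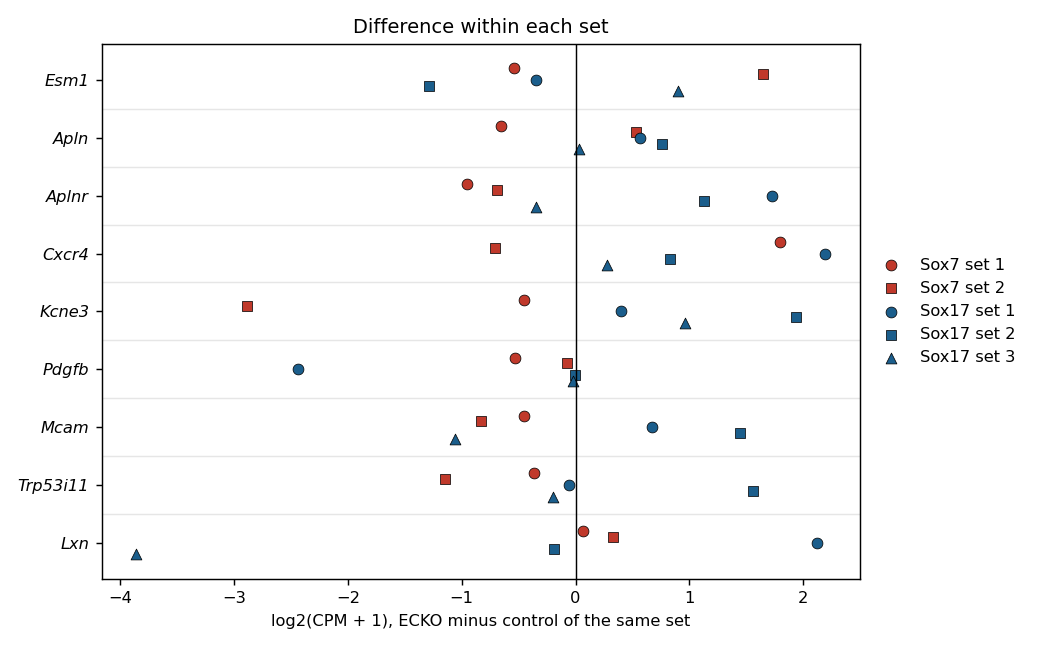
Difference in log2(CPM + 1) between the ECKO and the control library of each set (x axis) for the 9 genes, with Sox7 sets in red and Sox17 sets in blue. Kcne3 lies left of 0 in both Sox7 sets (−0.45 and −2.88) and right of 0 in all 3 Sox17 sets (0.40, 1.94 and 0.97), and Pdgfb lies at or left of 0 in all 5.

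Mcam had 811 and 528 CPM in Sox7 ECKO libraries, against 1107 and 941 CPM in Sox7 control libraries. ECKO was lower in both sets with no overlap (log2 fold change −0.61, SE 0.79, edgeR adjusted p = 1). Relative to the pan-endothelial mean it was 0.44 higher in ECKO in Sox7 set 1 and differed by −0.72 in set 2. Mcam had 714, 4212 and 952 CPM in Sox17 ECKO libraries, against 447, 1552 and 1978 CPM in Sox17 control libraries. A single library, Sox17 ECKO 2, was the highest of the 10 and set the SD of the ECKO group, 1955 CPM, at nearly its mean of 1959 CPM. The log2 fold change was 0.56 (SE 0.64), and −0.67 without Sox17 ECKO 2. Mcam is also made by pericytes, whose markers summed to 381 CPM in Sox17 ECKO 2, against 928 CPM in the control of the same set. The part of pericyte RNA in the Mcam values was not tested.

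Esm1, the secreted proteoglycan, was of mixed direction among the sets of both arms in CPM. It had 26.1 and 58.7 CPM in Sox7 ECKO libraries, against 38.6 and 18.1 CPM in Sox7 control libraries. Sox7 ECKO was the lower library in set 1 and the higher one in set 2, with a log2 fold change of 0.58 (SE 0.83, 95% interval −1.16 to 2.33). It was higher in both Sox7 sets relative to the pan-endothelial mean, by 0.35 and 1.76 on the log2(CPM + 1) scale, so the mixed direction in that arm depended on the scaling. Esm1 had 65.6, 11.9 and 35.9 CPM in Sox17 ECKO libraries, against 84.0, 30.6 and 18.7 CPM in Sox17 control libraries. ECKO was lower in sets 1 and 2 and higher in set 3, and the log2 fold change was −0.22 (SE 0.68). Its range with 1 library left out included both signs in both comparisons, −0.12 to 1.21 for Sox7 and −0.89 to 0.60 for Sox17. Set beside Mcam, a pair chosen after the values had been seen, Esm1 differed in the opposite direction in 4 of the 5 sets. Opposite directions were not counted for other pairs, so this is a description of the pair only. Sox17 ECKO 2 had the most Mcam and the least Esm1 of the 10 libraries, and Sox17 control 1 the least Mcam and the most Esm1.

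**Figure D5:**
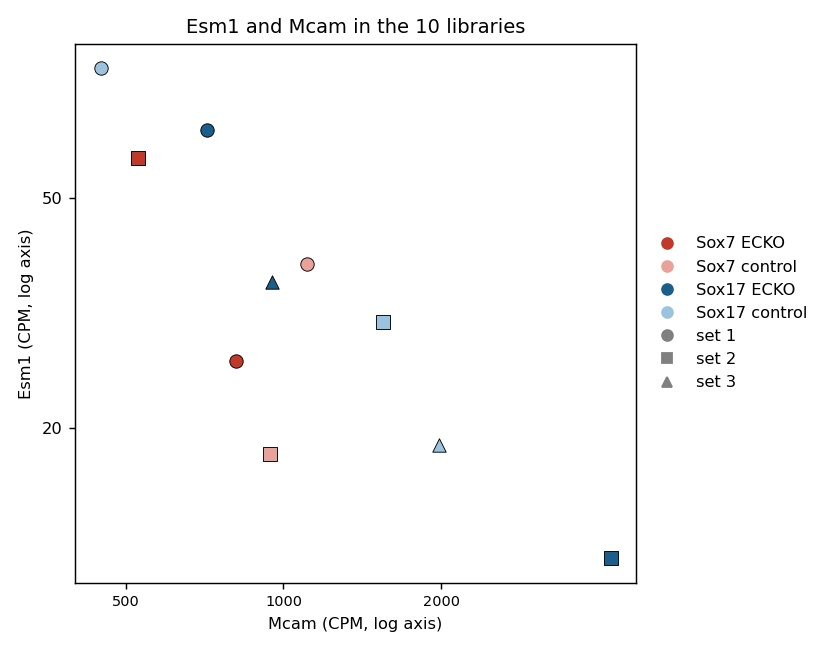
Esm1 (y axis, CPM, log scale) against Mcam (x axis, CPM, log scale) in the 10 libraries, coloured by group and shaped by set. Sox17 ECKO 2 (11.9 CPM of Esm1, 4212 CPM of Mcam) and Sox17 control 1 (84.0 CPM of Esm1, 447 CPM of Mcam) lie at opposite ends, and the groups are intermixed.

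Trp53i11 had 138 and 105 CPM in Sox7 ECKO libraries, against 178 and 233 CPM in Sox7 control libraries. The groups did not overlap, and the log2 fold change was −0.76 (SE 0.53, 95% interval −1.87 to 0.35, unadjusted p = 0.167, edgeR adjusted p = 1). Relative to the pan-endothelial mean the difference was 0.53 in Sox7 set 1 and −1.03 in set 2. Trp53i11 had 232, 488 and 402 CPM in Sox17 ECKO libraries, against 241, 165 and 461 CPM in Sox17 control libraries. Sets 1 and 3 were nearly level and set 2 was higher in ECKO, with a log2 fold change of 0.37 (SE 0.43). That value was 0.081 without Sox17 control 2 and 0.88 without Sox17 control 3. The difference between the arms was −1.13 (SE 0.68, edgeR adjusted p = 1.00).

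Lxn was close to level in the Sox7 arm and scattered in the Sox17 ECKO libraries. It had 7.94 and 6.64 CPM in Sox7 ECKO libraries, against 7.54 and 5.07 CPM in Sox7 control libraries (log2 fold change 0.21, SE 1.51). The Sox17 ECKO libraries had 60.5, 12.9 and 0.124 CPM, against 13.2, 14.9 and 15.3 CPM in Sox17 control libraries. One ECKO library was far above the controls, one level with them and one far below. Sox17 ECKO 3 had 1 count, against 247 counts in Sox17 control 3, a ratio per CPM of 0.811% with an exact 95% interval for counting error of 0.0205% to 4.56%. The log2 fold change of 0.76 (SE 1.23) changed sign with the set as a block (−0.73) and in limma-voom (−0.82).

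The spread within groups differed widely among the 9 genes. The coefficient of variation over libraries was 129.8% for Lxn and 99.8% for Mcam in Sox17 ECKO and 119% for Cxcr4 and 105% for Kcne3 in Sox7 ECKO. It was 4.39% for Apln in Sox17 ECKO, 1.64% for Kcne3 and 1.66% for Pdgfb in Sox7 control libraries. By group mean, Apln, Aplnr, Kcne3, Mcam, Trp53i11 and Lxn were highest in Sox17 ECKO, Cxcr4 in Sox7 ECKO, and Esm1 and Pdgfb in Sox17 control libraries. When the 4 groups were ordered by mean for each gene, 21 of 27 neighbouring pairs of groups overlapped over their libraries. Over all genes tested, 7.08% of such pairs did not overlap. The 6 that did not were Sox7 ECKO below Sox7 control for Aplnr, Mcam and Trp53i11, Sox17 ECKO above Sox7 control for Kcne3, Sox7 control below Sox17 control for Pdgfb and Sox7 ECKO below Sox17 control for Lxn. The last 3 cross the arms.

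A list of 26 other tip cell genes, all tested, had 6 higher and 20 lower fitted values in the Sox7 comparison (median −0.41) and 17 higher and 9 lower in the Sox17 comparison (median 0.36). None passed the adjusted threshold in edgeR. In the Sox7 arm 9 of 26 had non-overlapping groups with ECKO lower, against 12.8% of all genes and 10 of the 18 pan-endothelial markers. In the Sox17 arm 5 of 26 had them with ECKO higher, against 4.13% of all genes and 1 of the 18 pan-endothelial markers. Values of this list were not taken relative to the pan-endothelial mean. The smallest p values in the Sox7 comparison belonged to Unc5b, Col4a1 and Igfbp3. Unc5b, a netrin receptor of tip cells, averaged 134 ± 37.3 CPM in Sox7 ECKO and 301 ± 155 CPM in Sox7 control libraries (n = 2 each, log2 fold change −1.16, SE 0.59). Col4a1, a chain of basement membrane collagen, averaged 722 ± 162 CPM in Sox7 ECKO and 1314 ± 86.2 CPM in Sox7 control libraries (−0.86, SE 0.45). Igfbp3, a binding protein of insulin-like growth factors, averaged 1563 ± 900.0 CPM in Sox7 ECKO and 3187 ± 1913 CPM in Sox7 control libraries (−1.03, SE 0.58). In the Sox17 comparison they belonged to C1qtnf6, Unc5b and Angpt2. C1qtnf6, a secreted C1q-like protein, averaged 65.8 ± 27.4 CPM in Sox17 ECKO and 24.0 ± 9.26 CPM in Sox17 control libraries (n = 3 each, 1.45, SE 0.58). Unc5b averaged 119 ± 62.1 CPM in Sox17 ECKO and 259 ± 118 CPM in Sox17 control libraries (−1.12, SE 0.48). Angpt2, the vessel-destabilising ligand of the receptor Tek, averaged 519 ± 85.9 CPM in Sox17 ECKO and 294 ± 26.8 CPM in Sox17 control libraries (0.82, SE 0.37). The difference between the arms was −1.84 (SE 0.75) for Igfbp3, −1.23 (SE 0.57) for Col4a1 and −1.20 (SE 0.66) for Col4a2, with an edgeR adjusted p of 1.00 for each.

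Genes of stalk and phalanx cells were listed beside those of tip cells. Of 18 listed, 17 were tested, with 6 higher and 11 lower fitted values in the Sox7 comparison (median −0.45) and 13 higher and 4 lower in the Sox17 comparison (median 0.58). Of all genes, 47.5% were lower in the Sox7 comparison and 52.8% higher in the Sox17 comparison. The 18 pan-endothelial markers had 2 higher and 16 lower fitted values in the Sox7 comparison (median −0.51) and 10 higher and 8 lower in the Sox17 comparison (median 0.061). None passed in edgeR with the low-count filter and no block. In the Sox7 comparison the smallest p values were those of Aqp1, Selp and Tmem252. Aqp1, a water channel, averaged 1.44 ± 2.04 CPM in Sox7 ECKO and 40.4 ± 18.5 CPM in Sox7 control libraries (n = 2 each, −4.80, SE 1.48). Selp, the adhesion receptor P-selectin, averaged 5.52 ± 4.24 CPM in Sox7 ECKO and 23.8 ± 16.97 CPM in Sox7 control libraries (−2.11, SE 1.02). Tmem252, a membrane protein, averaged 248 ± 16.4 CPM in Sox7 ECKO and 440.4 ± 29.8 CPM in Sox7 control libraries (−0.83, SE 0.47). In the Sox17 comparison they were those of Lrg1, Ackr1 and Jam2. Lrg1, a secreted glycoprotein of angiogenic and venous endothelium, averaged 685 ± 113 CPM in Sox17 ECKO and 171 ± 153 CPM in Sox17 control libraries (n = 3 each, 1.99, SE 0.65, adjusted p = 1). It passed with no filter on low counts (edgeR adjusted p = 0.0129) and with the set as a block (log2 fold change 2.40, edgeR adjusted p = 0.0233). Ackr1, a chemokine-binding receptor of venules, averaged 618 ± 368 CPM in Sox17 ECKO and 239.6 ± 115 CPM in Sox17 control libraries (1.37, SE 0.54). Jam2, a junctional adhesion molecule, averaged 41.4 ± 12.1 CPM in Sox17 ECKO and 87.1 ± 17.5 CPM in Sox17 control libraries (−1.07, SE 0.50). For the difference between the arms, Aqp1 passed with no filter on low counts (log2 −6.11, edgeR adjusted p = 0.0499). Its level in Sox7 ECKO libraries was near the floor. Its differences in log2(CPM + 1) were −2.86 and −5.77 in Sox7 sets 1 and 2. They were 3.19, −0.13 and 0.21 in Sox17 sets 1, 2 and 3, so Sox17 set 1 alone was far from level. The lists share genes with others used here, Kdr with the partners, Kcnj8 with the pericyte markers and Vwf with the pan-endothelial markers.

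For each of the 9 genes, the genes with the most similar profile were taken as those with the highest Pearson r of log2(CPM + 1) over the 10 libraries after the mean of each arm had been subtracted. They are given as a description, since the 10 libraries share runs and sets. Esm1 was closest to Pfkl, the liver-type phosphofructokinase (r = 0.94), Apln to Ehd3 (0.93) and Pdgfb to Sort1, the receptor sortilin (0.97). Aplnr was closest to Kif15, a mitotic kinesin (0.95), and Cxcr4 to Eif4a1, an initiation factor of translation (0.97). Kcne3 was closest to Jagn1 (0.95), Mcam to Lsm14a (0.96), Trp53i11 to 4921531C22Rik (0.95) and Lxn to Ptk7, a pseudokinase receptor (0.96). The next 2 in order were Dgkq and Acss2 for Esm1, Capn5 and Trim3 for Apln, Neurl4 and Mier3 for Pdgfb, Frat2 and Cd82 for Aplnr and Sh2b2 and Renbp for Cxcr4. For the others they were Yars and Olfr1372-ps1 for Kcne3, Slx4 and Phf21a for Mcam, Dapk2 and Tmem252 for Trp53i11 and Rab9 and AW146154 for Lxn. No gene among the 9 was in the leading 3 of another.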

How the data were processed

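RNA was measured in 10 libraries of purified glioma endothelial cells. Trizol RNA, 500 ng per library, entered a Lexogen Quant-Seq kit, per the labels' protocols. The authors deposited raw counts, a whole number for each gene symbol, in a separate file for each library. Bowtie2, edgeR and build mm10 are named per the submitters' processing notes, without role or version. Annotation, counting tool and use of strand are not given in the sources used here. Because the kit's read placement could not be settled, levels were compared between libraries and not between genes.

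Another 1183 symbols, listed for Sox17 libraries alone and all beginning with Mir, were left out, and repeated lines of a symbol were summed. Groups came from the sample titles. The test used edgeR 4.0.16 under R 4.3.3 (TMM, filterByExpr, robust glmQLFit and glmQLFTest) in 1 fit of all 10 libraries with 4 group means and 6 residual degrees of freedom. The filter removed 10198 symbols. P-values were adjusted by Benjamini and Hochberg, with a threshold of 0.05. A standard error is |log2 fold change| over √F. The ribosomal RNA precursor Rn45s took between 3.93% and 28.8% of the counts and was kept. Intervals and floors on counts cover counting error only, since no molecular identifiers are mentioned.

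Set numbers were taken to pair libraries, since the design text speaks of independent sets and the labels of 4 sets share a run code. The deviations of paired libraries from their group means correlated at 0.193 in the Sox7 arm and at 0.120, 0.0911 and 0.0896 in Sox17 sets 1, 2 and 3. Alternatives were other size factors, no low-count filter, DESeq2 1.42.0, voom in limma 3.58.1, the replicate block, each arm alone, Rn45s left out, each library left out, and other pseudocounts or pan-endothelial scaling for differences within sets. The fit was also run on simulated counts with planted changes. How many of those it recovered is not given here, so no power of the test can be read from that run. The genes and lists were chosen with earlier results of these data known. Named genes are the 9 markers, their ligand and receptor partners, the 3 genes with the smallest p per comparison of the other tip cell and the stalk lists, and the 3 closest profiles per marker.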

Additional observations from a re-analysis of the deposited data

Results flagged for a closer look

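Kcne3 lay on opposite sides of 0 in the 2 arms: its ECKO library was the lower one in both Sox7 sets and the higher one in all 3 Sox17 sets. It was flagged for these same directions. Of all genes, 22.5% were lower in both Sox7 sets and 13.1% higher in all 3 Sox17 sets. The share of all genes with both was not counted. The fitted difference, Sox7 effect minus Sox17 effect, was −2.27 on the log2 scale (SE 1.09, unadjusted p = 0.0516, edgeR adjusted p = 1.00). It was −4.25 without Sox7 ECKO 1, −1.47 without Sox7 ECKO 2 and −2.94 with the set as a block (unadjusted p = 0.00956, adjusted p = 1). Relative to the pan-endothelial mean, Sox7 set 1 was at 0.44, so the opposite directions did not hold in that set under this scaling.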

How the results depend on the processing

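Under the 7 other settings and with each of the 10 libraries left out in turn, 0 of the 9 genes passed in any comparison, and the lowest adjusted p over 450 values was 0.252. Of those 450 fold changes, 254 kept their direction with a library left out and 172 under the other settings, while 16 and 8 did not. Counts over all genes, 0 in each main comparison, were higher with no low-count filter (58 in the Sox7 comparison, 30 in the Sox17 comparison, 58 in the difference), with the replicate block (1, 6 and 3) and with DESeq2 (3, 29 and 14). With 1 library left out they lay between 0 and 14, 0 and 1, and 0 and 9, and the counts of 14 and 9 came without Sox7 ECKO 1, the library high in macrophage markers. Without Sox7 control 1 the Sox7 comparison had 3, and the Sox17 comparison had 1 without Sox7 ECKO 1, Sox7 ECKO 2 or Sox17 ECKO 3. The cause was not tested. Among the 9 genes the block changed no call.

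Directions changed for 6 of the 9. Apln in the Sox7 comparison was at 0.0036 with other size factors and 0.0036 with DESeq2. Lxn in the Sox17 comparison was at −0.73 with the replicate block and −0.82 with limma-voom, and in the difference at 0.96 and 1.08. Cxcr4 in the difference was at −0.55 with the block and −0.13 with limma-voom. With 1 library left out, the Sox7 values ran from −0.12 to 1.21 for Esm1, −0.47 to 0.30 for Apln, −1.33 to 2.21 for Cxcr4 and −0.053 to 0.50 for Lxn. The Sox17 values ran from −0.89 to 0.60 for Esm1, −0.047 to 1.53 for Aplnr, −0.67 to 0.97 for Mcam and −1.14 to 1.34 for Lxn. The differences between arms ran from −0.030 to 1.46 for Esm1, −2.26 to 1.27 for Cxcr4, −1.58 to 0.057 for Mcam and −1.13 to 1.34 for Lxn. A left-out library leaves 1 library in a Sox7 group, which is then assumed to vary like the other groups. Of the differences within sets, 6 moved by more than the spread between replicates, all in Sox7 set 1 relative to the pan-endothelial mean. Depth limits mainly Sox17 control 1, where 3 counts equal 1.36 CPM, and Lxn.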
